A study of Callithrix jacchus with 39 samples.

Results

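In the common marmoset, a New World primate, skeletal muscle chromatin was compared with that of 7 other tissues. The skeletal muscle libraries were all those whose titles name that tissue, 4 of the 31 ChIP-seq libraries analysed here: H3K27ac replicates 1 and 2 and H3K4me3 replicates 1 and 2. The other 27 came from colon, heart, kidney, liver, pancreas, spleen and stomach, with 2 libraries per tissue and mark, apart from a single H3K4me3 library (replicate 2) in heart. The 8 input samples of the series are not analysed here. The labels give no genotype, treatment, age or sex for the groups, and nothing in them ties a replicate number to an animal. All p-values below thus measure only how these libraries scatter, which may be technical.

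Skeletal muscle is built mainly from multinucleate striated fibres whose contractile apparatus is shared in part with heart, the other striated muscle. H3K27ac is an acetylation of histone H3 that marks active enhancers and active promoters, and H3K4me3 is a methylation of the same histone that marks mainly promoters. Enhancers are as a rule used by fewer tissues than promoters, so a map of both marks separates the regulatory elements a tissue has to itself from those it shares. Each library was a list of called peaks, and only the chromosome, start and end of each peak were used. How deeply each library was sequenced is unknown, so a missing peak means only that none was called, and no interval was computed. The samples were tissue and not sorted cells, so a mark present in few nuclei and a weak mark present in many cannot be told apart.

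The H3K27ac lists of skeletal muscle held 37118 peaks in replicate 1 and 34890 in replicate 2, and they covered 27.01 and 25.93 Mb. Lists of the other tissues held between 24590 and 51554 peaks, so muscle lay well inside their range. Median peak length in muscle was 553 and 564 bp, also inside the range of the other libraries (498 to 670 bp). Of the replicate 1 peaks, 70.9% overlapped a replicate 2 peak by at least 1 bp, and of the replicate 2 peaks 73.8% overlapped one of replicate 1. The Jaccard index of the pair, the covered length they share over the length covered by either, was 0.530, and among the 15 other H3K27ac libraries each muscle library was most like the other. Merging the peaks of each replicate that met the other gave 23629 reproducible muscle regions over 26.0 Mb.

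The H3K4me3 pair was not alike. The library labelled skeletal muscle H3K4me3 replicate 1 held 16850 peaks over 12.8 Mb (median length 660 bp), whereas replicate 2 held 24424 peaks over 25.1 Mb (median 889 bp), the most peaks of any H3K4me3 list. In all 7 tissues with both lists, replicate 2 had the longer one. Of the peaks of the library labelled replicate 1, 96.1% met replicate 2, but only 59.1% of the replicate 2 peaks were met in return. Their Jaccard index was 0.467, which placed each far down the other's order of likeness: replicate 2 ranked 12 of 14 for the library labelled replicate 1, whose closest match was the heart library (0.641), and the library labelled replicate 1 ranked 13 of 14 for replicate 2, whose closest match was stomach replicate 2 (0.637). The index cannot exceed the shorter covered length over the longer, so these ranks depend in part on list length. By length, 94.3% of the library labelled replicate 1 was met by replicate 2, and 48.1% in return. The heart list, at 15.4 Mb, was nearer in length to the library labelled replicate 1.

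The H3K27ac maps, which the H3K4me3 lists did not enter, gave a check of those labels. For each tissue, the reproducible H3K27ac regions without a peak in the H3K27ac lists of the other 7 were taken, and the share of them overlapped by each H3K4me3 library was counted. Of the 15 H3K4me3 libraries, 14 met the regions of their own labelled tissue most often. The exception was the library labelled skeletal muscle replicate 1, which met 0.449% of the muscle regions (24 of 5346), a share inside the range of libraries from other tissues (0.187 to 1.46%). Replicate 2 met 9.80% of the same regions. At the 343 regions restricted to heart, the library labelled muscle replicate 1 met 8.45%, as did the heart library itself, and muscle replicate 2 met 8.16%, while the remaining libraries met 1.17 to 5.54%. The 2559 replicate 2 peaks found in no H3K4me3 library of another tissue gave the same contrast, since the library labelled replicate 1 met 21 of them (0.821%), against 12.3 to 52.8% for the same reading in the 6 other tissues with both lists. H3K4me3 results are therefore given for both lists and for replicate 2 alone. The source of the difference was not tested.

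**Figure D1:**
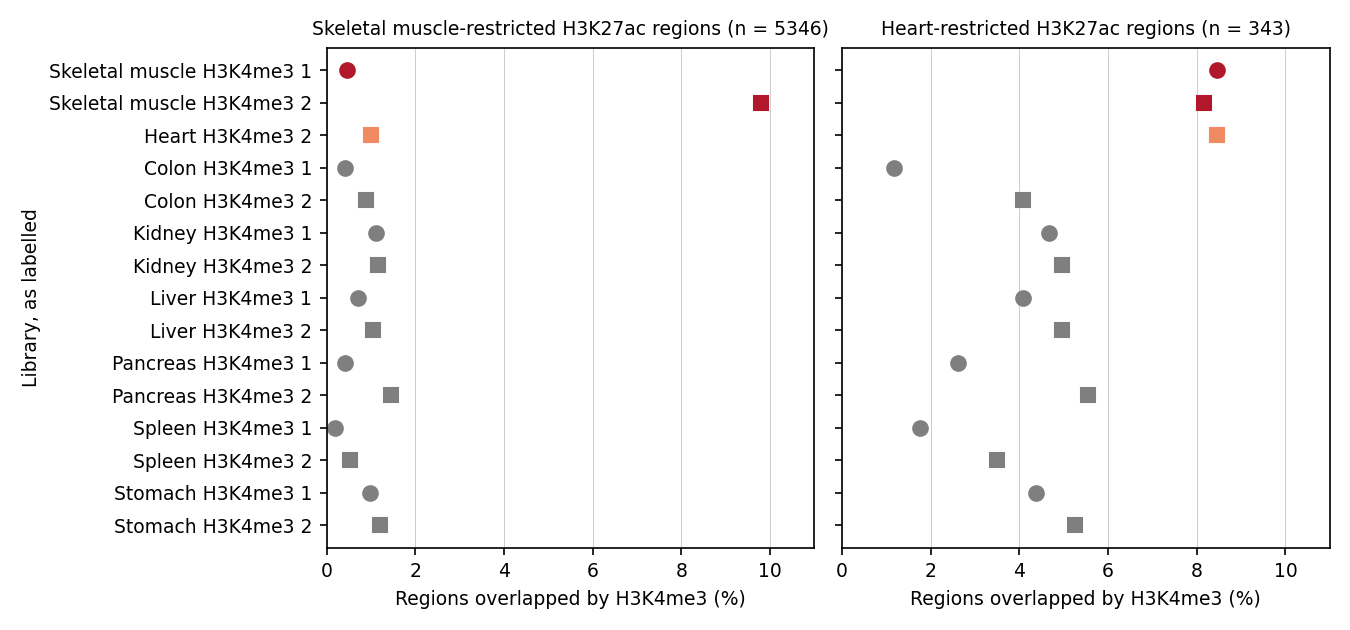
Share of tissue-restricted H3K27ac regions (x axis, percent) overlapped by each of the 15 H3K4me3 libraries (y axis, as labelled), for regions restricted to skeletal muscle (left) and to heart (right); circles are replicate 1 and squares replicate 2, dark red is muscle and orange is heart. At muscle regions the library labelled muscle replicate 1 lies with the other tissues at 0.449% and replicate 2 lies apart at 9.80%, whereas at heart regions both lie beside the heart library.

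The first comparison asked which part of the map is marked in muscle alone. In muscle, 32.3% of the replicate 1 peaks and 31.0% of the replicate 2 peaks met no H3K27ac peak of any other tissue. The mean over the other libraries was 18.6%, liver came next with a tissue mean of 31.3%, and liver replicate 2 reached 33.0%, so the groups overlapped (exact permutation p = 0.0667, adjusted p = 0.285). H3K27ac peaks were then split into promoter-like peaks, which overlap an H3K4me3 peak of the same tissue, and enhancer-like peaks, which do not. Enhancer-like peaks made up 56.1 and 54.0% of the muscle lists, against a mean of 52.2% elsewhere (exact permutation p = 0.533), inside the range of the other libraries. The classes depend on the H3K4me3 lists: without muscle H3K4me3 replicate 2 the muscle mean was 65.9% and the difference 13.7 points (exact permutation p = 0.00833, adjusted p = 0.0528).

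Enhancer-like peaks carried most of the tissue restriction. In muscle 53.5% and 53.1% of them were in no other tissue, more than in every one of the 14 other libraries, which ranged from 14.6% (heart replicate 2) to 51.0% (colon replicate 1). The excess over the mean of the other libraries (32.0%) was 21.2 points, with an exact two-sided permutation p of 0.0167 over the 120 choices of 2 libraries, and an adjusted p of 0.158 over the 19 library measures (Benjamini-Hochberg). With classes from H3K4me3 replicate 2 of each tissue alone, the shares were 53.1 and 52.7% in muscle and 31.5% elsewhere (exact permutation p = 0.00833, adjusted p = 0.0792). Among promoter-like peaks 5.21 and 5.16% were restricted, which was second to liver and inside the range of the others (0.547 to 9.43%; exact permutation p = 0.25). The mean Jaccard index of a muscle library with libraries of other tissues was 0.266 and 0.276, the lowest tissue mean of the 8, against 0.318 elsewhere (exact permutation p = 0.0583, adjusted p = 0.285).

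None of the 19 library measures passed an adjusted p of 0.05 (0% called), and 2 had an unadjusted p under it: the enhancer-like restricted share above and the share of constant regions missing, described below. The design limits this, because 2 against 14 libraries cannot give an exact permutation p under 0.00833, and a single measure at that value is adjusted to 0.158. Over tissues, 1 against 7, the smallest p is 1 in 8. When every list was cut to its widest peaks at the length of the shortest list of its mark, 5 of the measures passed at an adjusted p of 0.0362. These were the restricted share (28.4% in muscle against 17.0%), the enhancer-like restricted share (52.5 against 33.3%), the missing constant regions (6.10 against 1.77%), the length in stitched clusters (18.0 against 10.5%) and the H3K4me3 share without H3K27ac (28.7 against 19.7%).

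**Figure D2:**
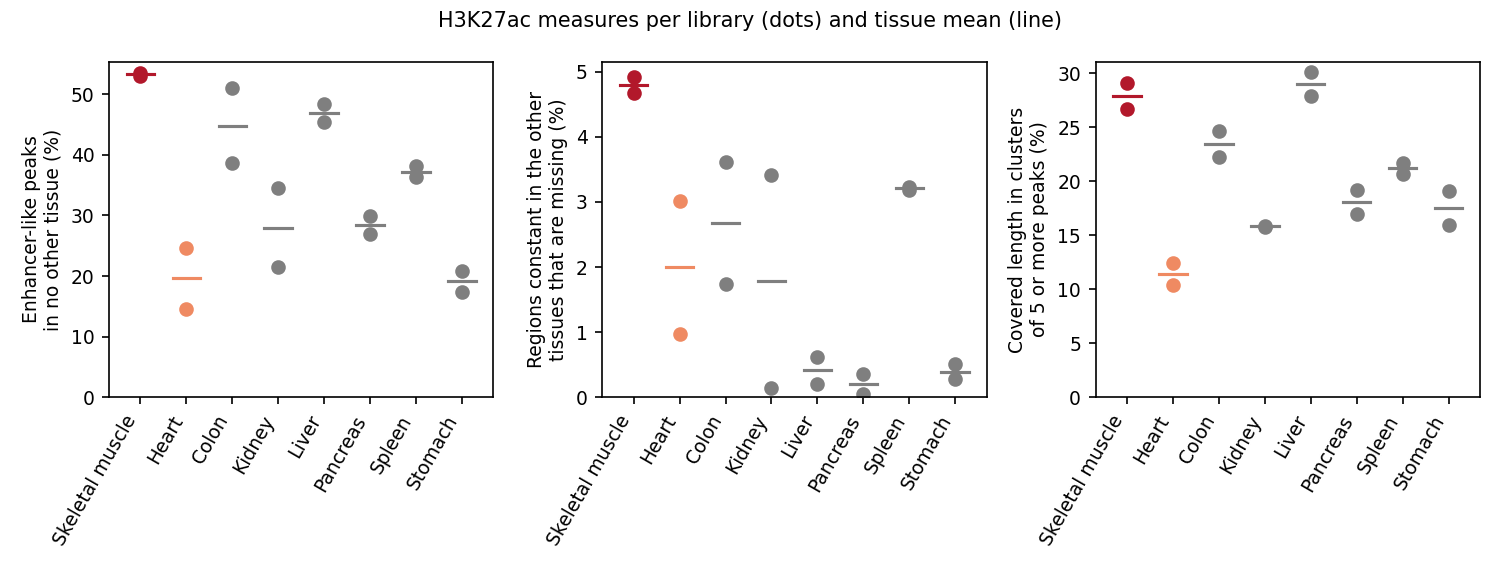
H3K27ac measures of the 16 libraries by tissue, in percent: enhancer-like peaks found in no other tissue (left), regions constant in the other 7 tissues that the library lacks (middle), and covered length in stitched clusters of at least 5 peaks (right). Dots are libraries and lines tissue means; both muscle dots lie above every other library in the left and middle panels (53.5 and 53.1%, 4.91 and 4.68%), and beside liver in the right panel.

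Taken as reproducible regions, 5346 of the 23629 muscle regions (22.6%) had no H3K27ac peak in any library of another tissue. The background, the same count over the other 7 tissues, was 11.9%, from 2.16% in heart to 23.2% in liver. Of the 5346 muscle-restricted regions, 4822 (90.2%) were enhancer-like, against 10350 of all 23629 muscle regions. The 5346 covered 4.74 Mb and were shorter than the rest of the muscle map, with a median of 734 bp against 835.5 bp for the other enhancer-like regions and 1054 bp for promoter-like regions found elsewhere too. Neither trait was particular to muscle. In the other 7 tissues 86.7 to 95.4% of the restricted regions were enhancer-like. Their median length was below that of both unrestricted classes in each of these tissues. Restricted enhancer-like regions of muscle also lay farther from H3K4me3 found in both muscle lists. The median distance to the nearest reproducible H3K4me3 region was 53.3 kb from restricted enhancer-like regions and 28.9 kb from unrestricted ones. That set rests on the library labelled replicate 1. To replicate 2 peaks marked in all 7 other tissues, the medians were 55.6 and 30.4 kb. To replicate 2 peaks in no other tissue they were 240 and 265 kb, the reverse order. To reproducible H3K4me3 regions, restricted ones lay farther in all 7 other tissues too (35.4 to 63.2 against 16.3 to 34.1 kb). Heart was read there from its single list.

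The restricted regions of muscle were often neighbours. Joined where gaps were within 12 kb, they formed 3594 clusters, of which 62 held at least 5 regions. Those 62 held 6.72% of the restricted regions, a larger share than in any other tissue (0 to 5.08%), and liver, with 7359 restricted regions, had 67 such clusters. Among all H3K27ac peaks, 29.1 and 26.7% of the covered length of the muscle lists lay in stitched clusters of at least 5 peaks, against a mean of 19.5% in the other libraries. Liver was higher (tissue mean 29.0%) and the difference did not pass the test (exact permutation p = 0.075, adjusted p = 0.285).

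The 10 largest muscle-restricted clusters, ranked by restricted length, were read as single loci. They were built from regions with H3K27ac in muscle and in no other tissue. Their H3K27ac contrast thus follows from the choice, which also favours muscle for any mark that accompanies H3K27ac, and the values are descriptive. Positions are in calJac3 coordinates, and no gene is named because no annotation of that build was used here. The first, on chromosome 19 from 22705080 to 22728051, held 8 restricted regions. H3K27ac covered 11.7 kb of it in muscle replicate 1 and 11.4 kb in replicate 2, and 0 in all 14 other libraries. Muscle H3K4me3 replicate 2 covered 5.38 kb of it, while the library labelled replicate 1 and the 13 libraries of other tissues had none there. The 10th cluster, on chromosome 9 from 521341 to 532386, had the same form, with H3K27ac over 8.88 and 7.08 kb, H3K4me3 over 5.77 kb in replicate 2, and no peak of either mark outside muscle. A muscle-restricted cluster with wide H3K4me3 thus occurred in replicate 2 at loci where the library labelled replicate 1 had no peak.

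H3K4me3 did not follow H3K27ac at every one of these loci. The cluster on chromosome 17 from 73682741 to 73705964 (9.78 and 12.9 kb of H3K27ac) and that on chromosome 13 from 88673781 to 88685639 (8.48 and 9.56 kb) carried no H3K4me3 in any library. The cluster on chromosome 10 from 85648288 to 85666294 had H3K27ac over 10.5 and 9.10 kb in muscle and none elsewhere, yet H3K4me3 was present in all 13 libraries of other tissues, over 0.428 to 1.86 kb. In muscle, H3K4me3 covered 4.99 kb there in replicate 2 and 0.854 kb in the library labelled replicate 1. Similarly, the cluster on chromosome 12 from 88522047 to 88531931 (7.95 and 8.87 kb of H3K27ac, none elsewhere) had 5.93 kb of H3K4me3 in replicate 2, at most 1.14 kb in 10 libraries of other tissues, and none in the library labelled replicate 1. Between their restricted regions, 3 of the 10 clusters held H3K27ac peaks of other tissues, from at most 4 libraries and over no more than 1.1 kb (heart replicate 1 on chromosome 17).

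**Figure D3:**
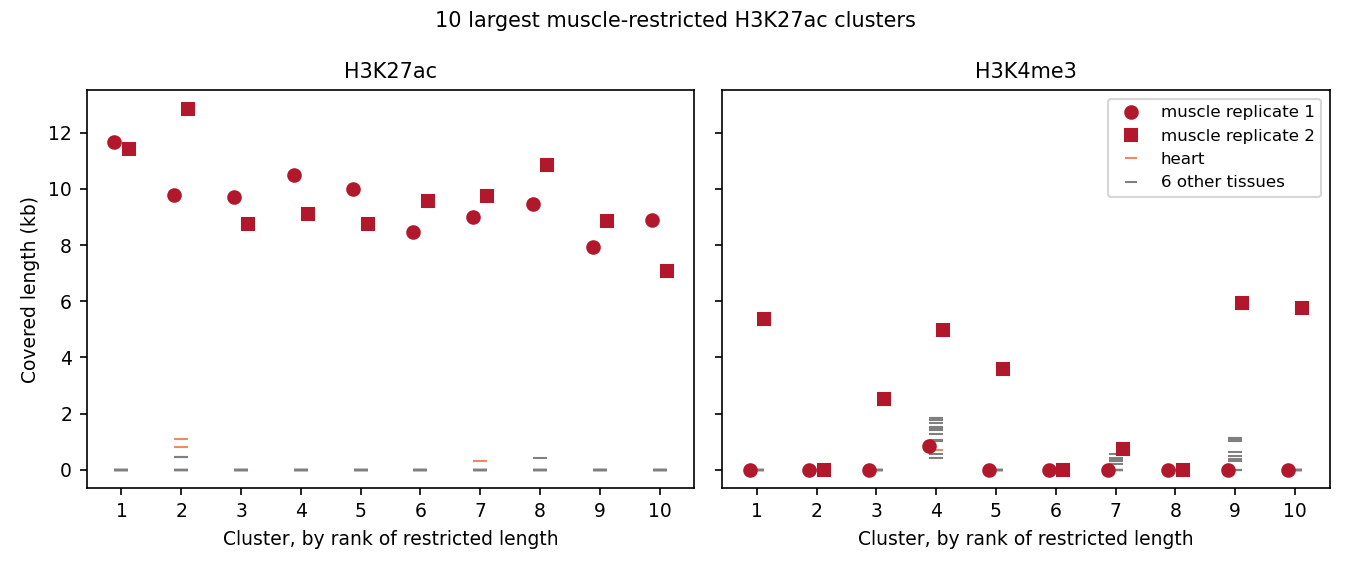
Length covered by H3K27ac (left) and H3K4me3 (right) peaks, in kb, within each of the 10 largest muscle-restricted clusters, ranked by restricted length. The clusters were built from regions with H3K27ac in muscle alone, so the contrast in the left panel follows from the choice. Circles and squares are muscle replicates 1 and 2, and short lines the libraries of heart (orange) and the 6 other tissues (grey); both muscle H3K27ac libraries cover 7.08 to 12.9 kb, while muscle H3K4me3 is wide in replicate 2 at 6 clusters and in the library labelled replicate 1 only reaches 0.854 kb.

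Across all 5346 restricted regions, H3K4me3 was found in both lists labelled muscle at 24, in replicate 2 alone at 500, in the library labelled replicate 1 alone at 0, and in neither at 4822. At 408 regions the mark was in muscle and in no other tissue, and at 116 it was in muscle and elsewhere. Only 16 regions had H3K4me3 in all 7 other tissues, so H3K27ac restricted to muscle on H3K4me3 of all 7 others was uncommon. The chromosome 10 cluster was read over its whole span, so it is not shown to hold any of the 16. The choice of regions by muscle H3K27ac favours muscle for any mark that accompanies it, so the next values are not independent of it. The mean share with H3K4me3 was 5.13% over the 2 muscle libraries and 0.853% over the 13 others (exact permutation p = 0.105, adjusted p = 0.105; the smallest p that 105 arrangements allow is 0.00952). With replicate 2 of each tissue alone, the shares were 9.80% in muscle and 0.524 to 1.46% in the other 7 tissues, a comparison of 1 tissue with 7 that cannot reach the threshold.

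The converse, regions that muscle lacks, was 1 of the 2 measures of the 19 on which both muscle libraries lay outside the range of every other library. Of the 8038 H3K27ac regions that were reproducible in all 7 other tissues, 4.91% had no peak in muscle replicate 1 and 4.68% none in replicate 2. The same measure, computed for each other tissue against its own 7 partners, was between 0.0535% (pancreas replicate 2) and 3.62% (colon replicate 1), with a mean of 1.53%. Muscle lay above all 14 libraries, by 3.27 points on average (exact permutation p = 0.00833, the smallest the design allows, adjusted p = 0.158). In 218 regions (2.71%) neither muscle library had a peak, against a background of 0.488% over the other 7 tissues, of which colon (106 regions) and spleen (100) had the most.

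Most of these regions without muscle H3K27ac carried muscle H3K4me3. Of the 218, 153 (70.2%) had it in replicate 2, and 130 of those also in the library labelled replicate 1. Counting either list gave 169 (77.5%), the rest being in the library labelled replicate 1 alone. The trait was not particular to muscle. Of the regions that spleen lacked, 80 of 100 had H3K4me3 of spleen replicate 2, and for colon the count was 68 of 106. For heart it was 11 of 28, and the remaining tissues lacked only 2 to 11 regions each. H3K4me3 was present in all 7 other tissues at 143 of the 218 muscle regions, and of those 119 had it in both lists labelled muscle and 5 in neither. H3K4me3 coverage was nonetheless less common than at the constant regions that muscle kept, of which 93.6% were met by the library labelled replicate 1 and 97.4% by replicate 2. The H3K4me3 libraries of the other tissues met 58.7 to 86.7% of the 218 regions (mean 77.3%), and the muscle libraries 67.0 and 70.2%, so the groups overlapped (exact permutation p = 0.0952, adjusted p = 0.105). That difference passed only with lists of equal length (71.2 against 81.6%, exact permutation test, adjusted p = 0.0286). The regions were chosen for H3K27ac in the other tissues and none in muscle, so the choice itself favours a lower value in muscle for any mark that accompanies H3K27ac.

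Of the 5 longest of these regions, 2 had H3K4me3 in both muscle lists. The longest lay on chromosome 13 from 15146648 to 15155238, where H3K27ac covered 0.985 to 6.30 kb in the 14 other libraries (median 2.75 kb) and 0 in both muscle libraries. H3K4me3 covered 1.56 kb of it in the library labelled replicate 1 and 1.73 kb in replicate 2, inside the range of the other tissues (1.21 to 2.98 kb). The region on chromosome 15 from 28961222 to 28966573 likewise had H3K4me3 over 0.891 and 1.51 kb in muscle and no muscle H3K27ac. At the remaining 3, on chromosomes 5, 3 and 9, H3K4me3 was in the library labelled replicate 1 (0.778 to 1.57 kb) and not in replicate 2. Those 3 thus go against the rest of the H3K4me3 maps, where replicate 2 had nearly all the peaks of the library labelled replicate 1.

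H3K4me3 of muscle, by contrast with H3K27ac, depended on which list was read. In the library labelled replicate 1, 0.641% of the peaks were in no other tissue, and in replicate 2 10.5%, which spans most of the range of the other libraries (0.867 to 12.6%; exact permutation p = 0.695). Only 18 of the 14104 regions reproducible in both muscle lists (0.128%) were restricted to muscle, the lowest share of the 8 tissues, where the other 7 gave 1.79% together. With replicate 2 of every tissue alone, 2740 of the 24424 muscle peaks (11.2%) were in no other tissue, second to liver (13.7%).

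H3K27ac separated those sets. At the 18 regions, muscle H3K27ac was present at 8 in replicate 1 and 10 in replicate 2, and heart H3K27ac at 7 and 11, so the heart values overlapped those of muscle (muscle mean 50%, other libraries 26.2%, exact permutation p = 0.0667, adjusted p = 0.105). At the 2740 replicate 2 peaks, H3K27ac was present at 37.3 and 36.6% in muscle and at 4.09 to 10.5% in the 14 other libraries. That difference of 29.8 points had an exact permutation p of 0.00833 and an adjusted p of 0.025 over the 3 measures read in the other mark. The choice required H3K4me3 in muscle and none elsewhere, so it favours muscle in any mark that accompanies H3K4me3, and the difference is not independent of that. With both lists the main setting did not pass. Under alternatives it passed when overlap had to cover 50% of the region (29.8 points) and with the central 300 bp (53.6 points). It passed too without heart (39.9 points) and with lists of equal length (29.2 points). The same choice favours muscle in all of these, and without muscle H3K4me3 replicate 2 the difference was -2.25 points.

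The longest of the 18 regions lay on chromosome 6 from 49068730 to 49073296. H3K4me3 covered all 4.57 kb in replicate 2 and 0.359 kb in the library labelled replicate 1, with H3K27ac over 3.51 and 1.85 kb in muscle and 0.665 kb in heart replicate 2, the only other library with a peak. On chromosome 15 from 28620802 to 28623695, H3K4me3 covered 2.89 and 0.562 kb in replicate 2 and the library labelled replicate 1. There H3K27ac covered 2.79 and 2.89 kb in muscle and 1.24 and 1.44 kb in heart, and it was present in 7 other libraries in all. The region ranked 3, on chromosome 13 from 93574107 to 93576261, had H3K27ac over 1.99 and 1.71 kb in muscle. Heart covered 1.93 and 1.33 kb of it, and 11 other libraries in all had a peak there. Those ranked 4 and 5, on chromosomes 7 and 9, had almost no muscle H3K27ac (0 and 0.3 kb, and 0 in both).

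The longest H3K4me3 domain of replicate 2 was muscle-restricted in both marks. It lay on chromosome 3 from 94024782 to 94031553 (6.77 kb), with H3K27ac over 5.998 and 5.455 kb in muscle, and no peak of either mark in the 27 non-muscle libraries; the library labelled replicate 1 had none either. The domain ranked 4, on chromosome 4 from 11310076 to 11315465 (5.39 kb), was wide in muscle replicate 2 alone: the library labelled replicate 1 covered 0.974 kb and the widest library of another tissue 1.77 kb. The domains ranked 3 and 5, on chromosomes 11 and 20, were broad in other tissues too, up to 5.85 kb (colon replicate 2) and 4.92 kb (kidney replicate 2), and that ranked 2 lay on an unplaced sequence. Domains of at least 4 kb made up 0.778% of the length covered in replicate 2 and 0 in the library labelled replicate 1, against 0.0326 to 1.59% elsewhere (exact permutation p = 0.6).

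The peaks that only replicate 2 had were shorter and less often shared than those both lists had. The 14431 replicate 2 peaks met by the library labelled replicate 1 had a median length of 1184 bp, muscle H3K27ac at 81.8%, and H3K4me3 in all 7 other tissues at 88.4%. The other 9993 had a median of 524 bp, muscle H3K27ac at 39.3%, and H3K4me3 in all 7 others at 13.6%. Peaks of replicate 2 alone met H3K27ac of their own tissue at 35.1 to 66.6% in the 6 other tissues with both lists, a range that includes muscle. Of the 9993 muscle peaks, 30.6% had no H3K27ac in any library of any tissue, against 2.81% of the 14431 shared ones. Altogether 35.6% of the replicate 2 peaks were without H3K27ac of muscle, more than in any other H3K4me3 library (11.4 to 28.0%), and 21.9% in the library labelled replicate 1. The muscle mean of 28.7% was the highest of the 8 tissues and did not pass the test with both lists (exact permutation p = 0.143, adjusted p = 0.388), nor could it with replicate 2 alone, 1 tissue against 7. Its difference from the other libraries, 8.35 points, was 1.495 points without replicate 2 and 15.2 without the library labelled replicate 1.

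Whether the muscle contrast differed between marks was tested on the libraries with both marks. The marks were matched by tissue and replicate number, though no label ties that number to an animal. In muscle, the excess of the H3K27ac restricted share over that of H3K4me3 was 31.6 points in replicate 1 and 20.5 in replicate 2. It was 14.9 elsewhere (exact permutation p = 0.0667, adjusted p = 0.267 over 4 interactions). The excess passed only with lists of equal length (24.8 against 13.9 points, exact permutation test, adjusted p = 0.0381). The 31.6 points rest on the library labelled H3K4me3 replicate 1. With replicate 2 of H3K4me3 alone the excess was 19.8 points in muscle, 19.3 in liver, the next, and 11.5 on average elsewhere. For the log2 ratio of H3K27ac to H3K4me3 the muscle difference was 0.02 for list length, 0.04 for covered length and 0.05 for median peak length (exact permutation p = 0.905, 0.876 and 0.676), and each changed sign with replicate 2 alone.

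Of all reproducible muscle H3K27ac regions, 31.8% were reproducible in no other tissue and 34.2% in all 7. For the other tissues, the share in none ranged from 5.85% (heart) to 34.0% (liver). Their share in all 7 ranged from 23.6% (liver) to 50.6% (heart), so muscle lay inside both ranges. Of the 10350 reproducible enhancer-like regions, 63.8% were reproducible in no other tissue, 14.9% in 1 and 2.01% in all 7. The share in no other tissue was above those of the other 7 tissues (18.3% in heart to 58.8% in liver), and the share in exactly 1 was below all of theirs (16.9 to 27.2%). Of the 13279 promoter-like regions, 6.91% were in no other tissue and 59.2% in all 7. H3K4me3 regions of both muscle lists were in all 7 at 77.5%, but those of replicate 2 at 55.8%, with liver alone lower (54.7%) on that reading.

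**Figure D4:**
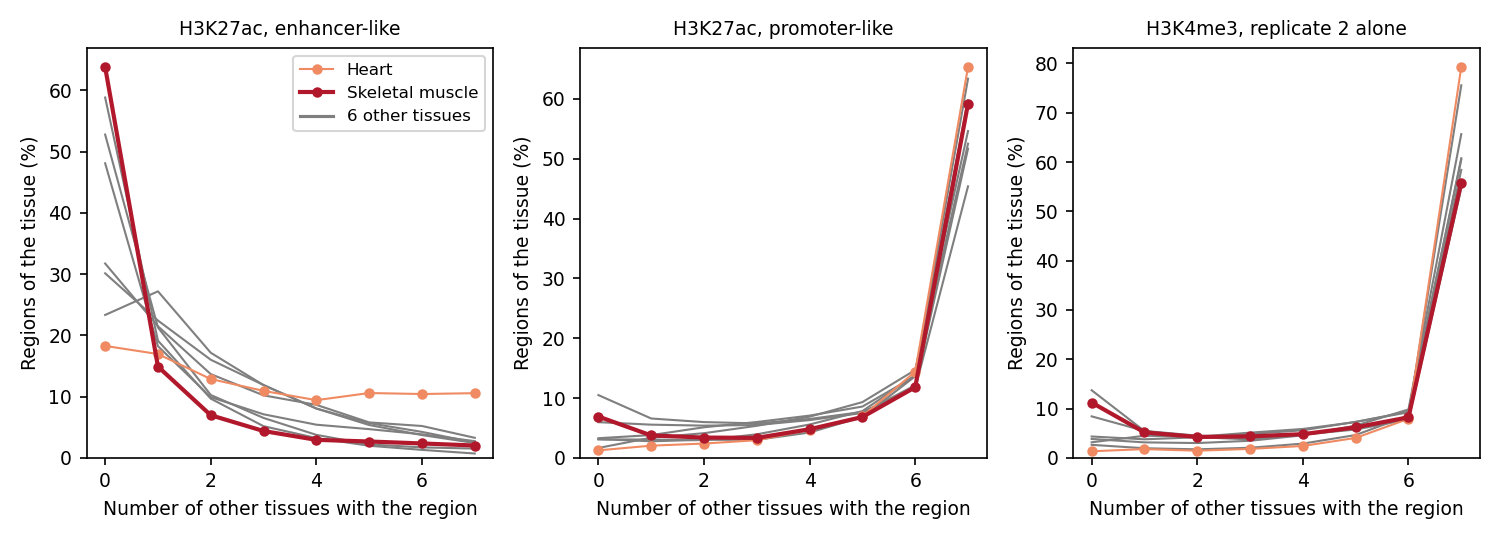
Percent of a tissue's regions (y axis) by the number of other tissues that also have them (x axis, 0 to 7), for enhancer-like H3K27ac (left), promoter-like H3K27ac (middle) and H3K4me3 of replicate 2 alone (right). Lines are tissues, with muscle in dark red, heart in orange and 6 others in grey; the muscle enhancer-like line starts highest, at 63.8%, and drops below every other tissue at 1 (14.9%).

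Heart was the tissue most like muscle by H3K27ac, though narrowly. The mean Jaccard index over the 4 library pairs was 0.313 ± 0.033 (SD) with heart, 0.286 ± 0.037 with kidney, 0.285 ± 0.006 with stomach, 0.282 ± 0.017 with pancreas, 0.256 ± 0.009 with spleen, 0.238 ± 0.008 with liver and 0.236 ± 0.027 with colon. The step from heart to kidney was within the SD of the pairs, and without heart replicate 2 the index with heart was 0.285 and ranked 3 of 7. The direction of reading mattered, because the lists differ in length. Muscle peaks met 60.9% of heart peaks, the most of any partner, and 32.3% of liver peaks, the fewest. Conversely, liver peaks met 49.9% of muscle peaks, the most, and heart peaks 42.2%. By the Jaccard index of H3K4me3, heart (0.548) ranked below stomach (0.626), kidney (0.603), liver (0.576) and colon (0.556) for muscle replicate 2. The lists differ in length here too, with 15.4 Mb covered in heart and 25.1 Mb in muscle replicate 2. Muscle replicate 2 met 95.1% of heart H3K4me3 peaks, the most of any partner (spleen next, 91.3%). In return, heart met 65.6% of its peaks, with spleen alone lower (62.7%). With both muscle lists heart had the highest mean index (0.594), which includes the library labelled replicate 1.

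Regions shared by muscle and exactly 1 other tissue were counted next. Muscle had 2039 such H3K27ac regions: liver was the partner for 715 (35.1%), heart for 307 (15.1%), and stomach for 67 (3.29%). Seen from the partner, 34.5% of the heart regions shared with exactly 1 tissue were shared with muscle, against 2.65% (stomach) to 14.8% (liver) for the other 6. With H3K4me3 of replicate 2 alone heart was first again, with 57.6%, and the other 6 followed in another order, from 11.3% (spleen) to 27.1% (pancreas). In the H3K4me3 regions of both muscle lists, heart was the partner of 80 of 176 (45.5%), a count that rests on the library labelled muscle replicate 1. With replicate 2 alone it was the partner of 146 of 1261 (11.6%), below liver (23.5%), colon and pancreas (17.1% each), stomach (16.1%) and kidney (11.9%). Of the 362 heart H3K4me3 peaks found in none of the 6 remaining tissues, that library met 85 (23.5%) and muscle replicate 2 met 150 (41.4%).

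**Figure D5:**
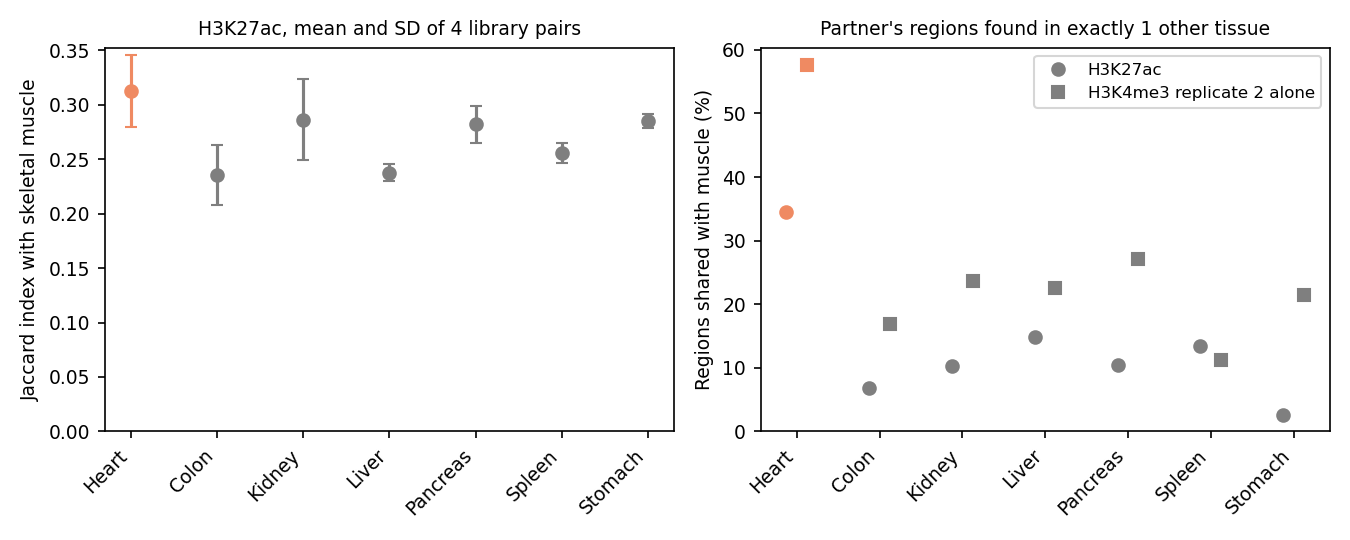
Likeness of skeletal muscle to each other tissue: Jaccard index of H3K27ac (left, mean and SD of 4 library pairs) and the percent of the partner's regions found in exactly 1 other tissue that are shared with muscle (right), for H3K27ac (circles) and H3K4me3 of replicate 2 alone (squares). Heart is highest in these 3 readings (0.313, 34.5% and 57.6%), with error bars that overlap those of kidney on the left; by the Jaccard index of H3K4me3 replicate 2, not plotted, it lies below 4 other tissues.

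With no peak allowed in any library of the remaining 6 tissues, muscle and heart shared 123 H3K27ac regions, and muscle and liver 330. Per 1000 reproducible regions of the partner that was 7.74 for heart, 10.4 for liver and 1.02 to 3.88 for the others. Muscle H3K4me3 replicate 2 met 35.0% of the 123 muscle and heart regions, the highest of the 7 partners (5.06 to 31.8% for the rest). The 5 largest clusters of these regions are bounded and ranked by muscle regions, so heart could cover no more of them than their muscle extent, and the values are descriptive. On chromosome 2 from 204192149 to 204198256, H3K27ac covered 5.93 and 5.88 kb in muscle and 0.803 and 0.391 kb in heart. On chromosome 22 from 37375888 to 37379364, it covered 3.22 and 3.33 kb in muscle and 0.975 and 1.52 kb in heart, and H3K4me3 covered 3.07 kb in muscle replicate 2 and 1.48 kb in heart, with none in the library labelled muscle replicate 1. The other 3, on chromosomes 2, 1 and 10, had 3.43 to 4.05 kb in muscle and 0.517 to 1.68 kb in heart.

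Along the genome, 4216 windows of 1 Mb held H3K27ac in at least 1 library. In 329 of them (7.8%) both muscle libraries had a larger part of their covered length than every other library, against 4.49% for an average other tissue and 6.97% for liver, the next. Muscle was below every other library in 224 windows (5.31%), against 2.3% for an average other tissue. The window with the widest gap was on chromosome 7 from 45000001 to 46000000, which held 1531 and 1372 bases per covered Mb in muscle and at most 873 elsewhere (stomach replicate 2, median 570). Next came chromosome 13 from 84000001 to 85000000 (881 and 900 bases per covered Mb, at most 406 elsewhere) and chromosome 9 from 109000001 to 110000000 (804 and 764, at most 297). The window ranked 4, on chromosome 10 from 85000001 to 86000000 (986 and 942, at most 481), contains the cluster with H3K4me3 in all tissues described above, and the last was on chromosome 1 from 188000001 to 189000000 (1118 and 1010, at most 555).

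No assembled chromosome of 24 passed an adjusted p of 0.05 for its share of H3K27ac peaks (0% called), and 6 had an unadjusted p under it. The lowest p, 0.00833 (adjusted 0.1), came from chromosome 19, which held 2.41% of the peaks in both muscle libraries and 1.96 to 2.28% in the others, and chromosome 9, with 4.43 and 4.26% in muscle and 4.52 to 4.96% in the others. Of the muscle-restricted regions, chromosome 19 held 2.86% and chromosome 22 held 2.94%, larger parts than in the other tissues (1.75 to 2.57% and 1.56 to 2.36% of theirs). Of all reproducible muscle regions these chromosomes held 2.39 and 5.25%, so on chromosome 22 the restricted share was below the overall one. Muscle had the lowest part of the 8 tissues on chromosome 3 (4.04%, against 4.39 to 6.77%) and chromosome 21 (1.07%, against 1.28 to 2.49%). Of all reproducible muscle regions, chromosomes 3 and 21 held 3.81 and 1.04%, so their restricted shares were not below the overall ones.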

How the data were processed

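ChIP-seq used antibodies ab4729 (H3K27ac) and ab8580 (H3K4me3) and TruSeq DNA libraries, per the labels' protocols. The authors deposited 1 narrowPeak list per library, so peaks were not called on pooled replicates. Per the submitters' processing notes, which give no role or order, MACS2 2.1.1.20160309, Bowtie 1.1.2, bedtools 2.26 and SAMtools 1.3.1 were used, and per the peak names in the deposited files the build is calJac3. How inputs entered the calls is not stated in these sources. Only columns 1 to 3 were read, and no peak was shorter than 300 bp. A deeper library may give a longer list.

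Analyses ran in Python 3.11.15 (scipy 1.17.1, numpy 2.4.6; figures in matplotlib 3.10.9). Any shared base counted as overlap, a minimum of 1 bp. Peaks of either replicate that met the other were merged into reproducible regions; a lone list was taken as it was. Tests were exact two-sided permutations over libraries, with Benjamini-Hochberg adjustment over 19 library measures, 3 measures of 1 mark at regions chosen by the other, 4 interactions and 24 chromosomes. The code was tested on simulated data. The regions named were the 10 largest muscle-restricted H3K27ac clusters, the 5 largest clusters shared by muscle and heart alone, the 5 longest restricted H3K4me3 regions, regions muscle lacks and H3K4me3 domains of replicate 2, and the 5 windows with the widest gap. Members, measures and this rule were chosen with earlier results of these data known. Planned marker genes were not used, since no annotation of calJac3 was at hand. Alternatives were other overlaps, peak lengths, list lengths, assembled chromosomes alone, tissues without heart, replicate 2 of H3K4me3 alone, dropping each library in turn, and permuting within replicate numbers.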

Additional observations from a re-analysis of the deposited data

How the results depend on the processing

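Under alternatives other than leaving out a library, 156 recomputed values kept their direction and their side of the threshold, 12 newly passed it, 10 changed sign and 2 counts moved by over 1.5 times. No adjusted p with all libraries and both lists was under 0.05, so no call could be lost. Differences below are muscle minus the mean of the other libraries. With the widest peaks in lists of equal length, 8 differences newly passed: H3K27ac restricted share 11.3 points, restricted share of enhancer-like peaks 19.2, constant regions missing 4.33, length in stitched clusters 7.50, H3K4me3 without H3K27ac 8.999, H3K4me3 at regions with constant H3K27ac that muscle lacks -10.4, the interaction of mark for restricted share 10.9, and H3K27ac at muscle-restricted H3K4me3 regions 29.2. The last passed too with overlap of 50% (29.8), the central 300 bp (53.6), without heart (39.9) and with replicate 2 of H3K4me3 alone (29.8). Differences that missed the threshold changed sign for H3K27ac list length with peaks of at least 500 bp (-624 peaks) and without heart (-916), and for H3K4me3 list length with peaks of at least 500 bp (-263). With replicate 2 of H3K4me3 alone, the sign changed for H3K4me3 covered length (3.41 Mb), median peak length (15.9 bp), constant regions missing (-1.28 points) and the interactions for list length (-0.16; without heart -0.0081), covered length (-0.29) and median peak length (-0.12). H3K4me3 regions in no other tissue numbered 85 with both lists, 152 with overlap of 50% and 2740 with replicate 2 alone. The causes of these changes were not tested.

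Leaving out each library in turn kept direction and side in 623 values, while 26 changed sign, 6 counts moved by over 1.5 times and 1 newly passed (H3K27ac at muscle-restricted H3K4me3 regions without the heart H3K4me3 library, 34.5 points). The H3K27ac list length difference ranged from -419 to 1945 peaks, the enhancer-like share from 1.24 to 13.7 points (2.77 with all libraries), the restricted share of promoter-like peaks from -2.52 to 3.08 points, and the distance of enhancer-like to promoter-like peaks from -1.59 to 14.6 kb, the last without muscle H3K4me3 replicate 2. For H3K4me3, list length ranged from -3519 to 4055 peaks, covered length from -7.14 to 5.14 Mb, median length from -181 to 47.7 bp, restricted share from -4.05 to 6.23 points, share without H3K27ac from 1.495 to 15.2 points, constant regions missing from -0.995 to 2.56 points, and length in domains of at least 4 kb from -0.597 to 0.181 points. Either end of these came from dropping 1 or the other muscle list. H3K4me3 at muscle-restricted H3K27ac regions ranged from -0.404 to 8.95 points. H3K27ac at muscle-restricted H3K4me3 regions ranged from -2.25 to 34.5 points. Both were lowest without muscle H3K4me3 replicate 2. Interactions ranged from -0.29 to 0.34 for list length, -0.47 to 0.56 for covered length and -0.15 to 0.25 for median length. Muscle H3K27ac regions in no other tissue numbered 6992 to 15656 (7521 with all libraries), with 14311 and 15656 without muscle replicates 1 and 2, since a lone list has no partner to be reproducible in. For H3K4me3 the count was 54 without pancreas replicate 1, 165 without the heart library, 255 without muscle replicate 2 and 4130 without the library labelled muscle replicate 1. With a muscle H3K27ac library left out, no exact permutation test of an H3K27ac measure could pass.

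No label ties a replicate number to an animal or batch, and the data did not meet the bar for pairing, which asks for a correlation over 0.1 in every pair. The difference of replicate 1 from 2 in H3K27ac share per 1 Mb window correlated at over 0.1 between 13 of 28 pairs of tissues, and in 1 of 7 pairs with muscle (highest of all 0.34), while replicate 2 had the longer H3K4me3 list in 7 of 7 tissues. With the replicate number as a block, no call changed. The unadjusted p of the enhancer-like restricted share was then 0.0313 and that of the missing constant regions 0.0156 (both adjusted 0.297), and 7 chromosomes had an unadjusted p under 0.05, against 6 without the block and 5 with peaks of at least 500 bp. List length has no value in lists of equal length, and neither the 50% overlap nor the central 300 bp applies to measures that ask for no overlap. Depth behind each list is unknown.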
